A study of Mus musculus with 17 samples.

Results

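The genes described here are 10 markers of endothelial cells, the cells that line blood vessels: Pecam1, Cdh5, Emcn, Kdr, Flt1, Tek, Eng, Ehd3, Plvap and Sox17. They were taken from a list of names, with no threshold on their values, and their symbols were matched to the gene identifiers of the count tables. All 10 were found among the 53313 identifiers common to the 17 libraries, and all 10 had enough reads to be tested, among 15434 genes in cultured cells and 17067 genes in kidneys.

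The study compared senescent with non-senescent primary tubular epithelial cells (PTEC), and kidneys of different ages, by sequencing poly(A) RNA and counting reads on genes. PTEC were grown in REGM2 medium from tubular fragments of collagenase-digested, sieved kidneys of wild-type C57BL/6Rj mice. The strain is spelled as in the labels, and the study's methods write C57BL/6JRj for the mice of both PTEC and kidneys. Non-senescent PTEC (n = 4) were taken at day 6 without irradiation. Senescent PTEC (n = 4) were taken at day 16, after confluent cells had received 10 Gray of γ-irradiation and a further 10 days in culture, so irradiation and time in culture cannot be told apart. Whole-kidney RNA came from a snap-frozen piece of the right kidney of untreated male wild-type C57BL/6Rj mice aged 3, 12 and 24 months (n = 3 each). The labels number the PTEC replicates 1 to 4 in both groups but do not say which cultures shared a mouse or a day. Where nothing says that cultures came from separate isolations, p-values measure only the spread between these samples, which may be technical.

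Endothelial cells are held together by a junction made of VE-cadherin and PECAM-1, and their growth and survival are governed by vascular endothelial growth factors (VEGF) and angiopoietins acting on receptors at their surface. The kidney holds several kinds of vessel. The glomerular capillaries filter the blood through open pores, the peritubular capillaries have pores closed by a diaphragm, and larger arteries and veins have a continuous lining. In bulk RNA, fewer cells of a type and less RNA per cell cannot be told apart, which holds for every level given below.

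Total counts per library were 26963442 to 32838856 in non-senescent PTEC, 29041073 to 35409144 in senescent PTEC, 37311247 to 49471409 in 3-month-old, 54097073 to 59718029 in 12-month-old and 62761670 to 66894790 in 24-month-old kidneys. Levels are given as CPM, the read counts scaled to a common library size with TMM factors. PTEC and kidneys were scaled and tested apart unless both are compared. Differences between groups were tested by edgeR (quasi-likelihood), and changes were called by the study's thresholds, a Benjamini-Hochberg adjusted p below 0.05 and a log2 fold change beyond 0.5 in either direction. The labels call PTEC proximal tubular cells. The 8 proximal tubule genes of a fixed list summed to 71.9 to 485 CPM in non-senescent PTEC and 6759 to 17482 CPM in kidneys when all libraries were scaled together, so transporters that define this cell type were low in the cultures.

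The promoters of Emcn, Kdr, Flt1 and Tek are shown as those of a surface gene and the receptors, which are compared with each other below: Emcn gave the lowest p of the members between old and middle-aged kidneys, and the VEGF receptors Kdr and Flt1 and the angiopoietin receptor Tek differed in direction in senescent PTEC. The sequences are the 250 bases before the RefSeq gene start in assembly GRCm38.p6, 5′ to 3′ on the strand of the gene. Capitals mark a 6-base form of the site bound by ETS factors (AGGAAG, or CTTCCT on the other strand), a motif class common in endothelial promoters.
Emcn: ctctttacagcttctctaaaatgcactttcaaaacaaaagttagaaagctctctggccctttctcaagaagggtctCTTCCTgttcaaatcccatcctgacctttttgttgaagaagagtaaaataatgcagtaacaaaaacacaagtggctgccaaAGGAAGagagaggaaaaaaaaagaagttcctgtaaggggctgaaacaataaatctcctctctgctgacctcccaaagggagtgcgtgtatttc
Kdr: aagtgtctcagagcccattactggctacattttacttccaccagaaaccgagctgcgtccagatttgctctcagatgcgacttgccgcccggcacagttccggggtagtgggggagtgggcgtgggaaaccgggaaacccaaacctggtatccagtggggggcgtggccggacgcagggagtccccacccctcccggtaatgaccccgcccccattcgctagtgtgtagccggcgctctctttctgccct
Flt1: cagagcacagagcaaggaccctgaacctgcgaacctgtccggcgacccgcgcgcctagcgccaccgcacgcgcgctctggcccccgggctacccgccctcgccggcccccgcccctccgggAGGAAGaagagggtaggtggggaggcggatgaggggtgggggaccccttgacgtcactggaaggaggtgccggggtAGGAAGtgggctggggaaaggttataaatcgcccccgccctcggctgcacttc
Tek: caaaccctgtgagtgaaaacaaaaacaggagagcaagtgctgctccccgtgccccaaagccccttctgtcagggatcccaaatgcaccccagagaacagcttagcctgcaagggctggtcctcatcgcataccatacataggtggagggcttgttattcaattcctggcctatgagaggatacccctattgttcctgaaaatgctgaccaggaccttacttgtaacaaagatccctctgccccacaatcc
These windows lie at chr3:137340828-137341077 (Emcn, plus strand), chr5:75978456-75978705 (Kdr, minus strand), chr5:147726012-147726261 (Flt1, minus strand) and chr4:94739039-94739288 (Tek, plus strand). The last 11 bases of the Emcn window and the last 3 of the Kdr window lie inside the GENCODE gene. This 6-base ETS form was found 2 times in Emcn and 2 times in Flt1 and was not found in the windows of Kdr and Tek, while 29.5% of the 32851 RefSeq promoter windows of this length held it. The shorter GGAA or TTCC, the core of ETS sites, does occur in the Kdr and Tek windows and was not counted. The GC box (GGGCGG or CCGCCC), present in 32.7% of windows, occurred 3 times in Flt1 and 2 times in Kdr. A TATAAA or TTTATA motif, present in 12.4% of windows, was found in Flt1, with its first base 31 bases before the start. The motifs did not overlap each other. The GC content was 40.8% in Emcn, 51.2% in Tek, 61.6% in Kdr and 70.4% in Flt1. Promoter sequences were matched for 6 of the 10 genes, with Eng and Ehd3 the other two. Ehd3, which had the largest log2 fold change of the members in senescent PTEC, is not shown because its RefSeq window lies wholly inside the GENCODE gene, and the motifs were not found in it. A match of letters is a description of the sequence only.

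In GRCm38, the junction gene Pecam1 (ENSMUSG00000020717) lies at chr11:106654217-106750628 on the minus strand, Cdh5 (ENSMUSG00000031871) at chr8:104101625-104144511 on the plus strand and Emcn (ENSMUSG00000054690) at chr3:137341067-137432185 on the plus strand. The receptor genes Kdr (ENSMUSG00000062960, chr5:75932827-75978458) and Flt1 (ENSMUSG00000029648, chr5:147561604-147726011) lie on the minus strand of the same chromosome. Tek (ENSMUSG00000006386, chr4:94739289-94874976) and Eng (ENSMUSG00000026814, chr2:32646595-32682669) lie on the plus strand. Ehd3 (ENSMUSG00000024065) lies at chr17:73804134-73832094 on the plus strand, Plvap (ENSMUSG00000034845) at chr8:71497765-71511752 on the minus strand and Sox17 (ENSMUSG00000025902) at chr1:4490931-4497354 on the minus strand. Exons of Sox17 overlap the opposite-strand gene Gm37587 over 804 bases (16.8% of the Sox17 exon length), and Gm37587 itself held 0 to 4 counts per library. Eng shares 61 exon bases (1.51%) with Fpgs on the opposite strand.

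In senescent PTEC, called endothelial markers lay in both directions. Ehd3, a membrane-trafficking protein best known from glomerular endothelium, rose 3.72-fold. Sox17, a transcription factor of arterial endothelium, fell by a factor of 3.12, and Kdr, the main signalling receptor for VEGF-A, fell by a factor of 2.02. Pecam1 and Cdh5, the components of the endothelial junction, differed between the groups by less than the spread between cultures. Without regard to replicate numbers, 3 of 10 members were called, while 39.8% of all genes tested were called in this comparison (20.1% up and 19.7% down). The median log2 fold change of the members was 0.11, against -0.0020 over all genes.

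**Figure D1:**
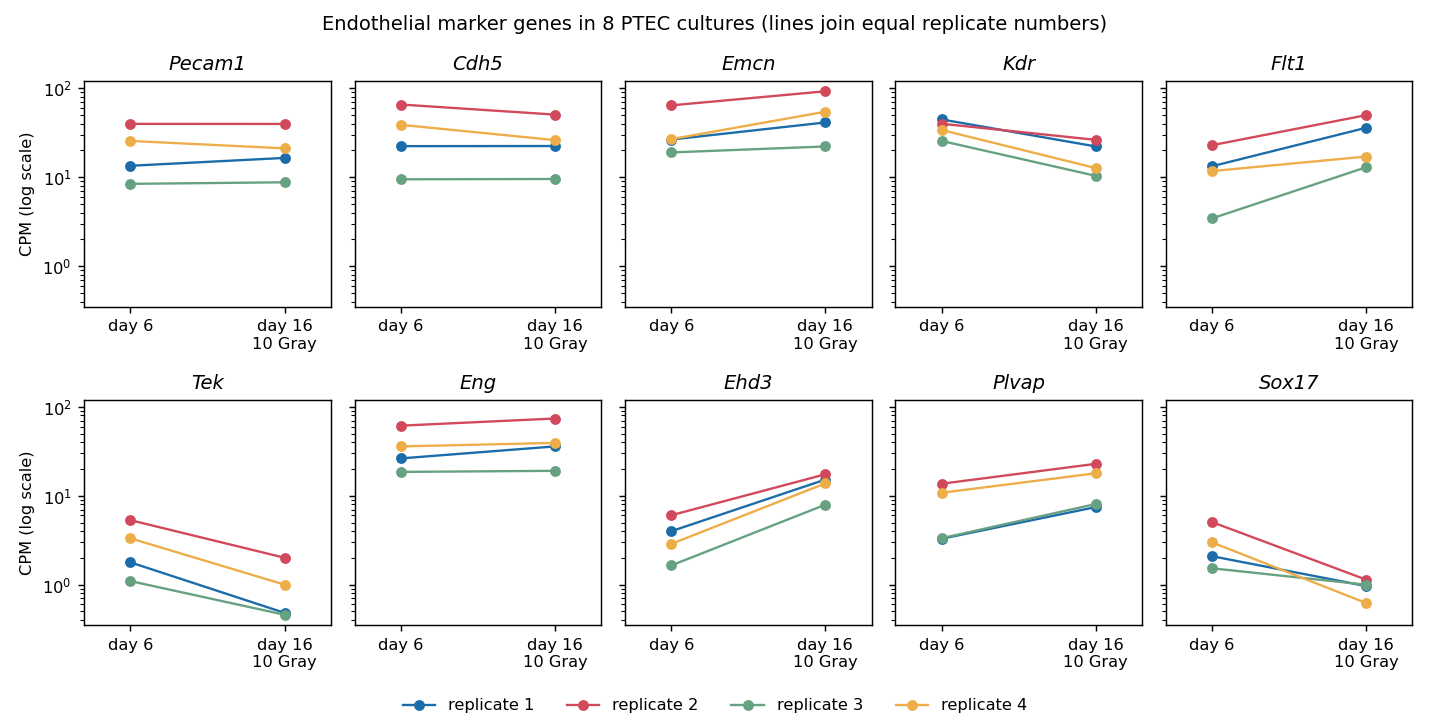
Levels of the 10 endothelial markers in each PTEC culture, as CPM on a log axis, at day 6 without irradiation and at day 16 after 10 Gray. Points are single cultures, lines join cultures with the same replicate number, and replicate 2 stands highest in nearly every panel in both groups.

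The cultures differed more from each other in these genes than in the median gene. Within non-senescent PTEC the highest culture exceeded the lowest by 1.75-fold to 6.93-fold, with a median of 3.91 over the members and of 1.68 over 13364 genes. Within senescent PTEC the corresponding folds were 1.83 to 5.30, with medians of 3.86 and 1.35. Replicate 2 was highest for 9 of 10 members in non-senescent PTEC (replicate 1 was highest for Kdr) and for 10 of 10 in senescent PTEC. Replicate 3 was lowest for 9 and 8 members. For 8 of the 10 genes, all but Kdr and Sox17, the 4 replicate numbers stood in the same order in both groups. The summed level of the 10 genes in replicates 1 to 4 was 158, 324, 92.2 and 193 CPM in non-senescent PTEC and 199, 377, 100.4 and 204 CPM in senescent PTEC. A list of 23 other endothelial genes summed to 87.9, 185, 80.2 and 135 CPM and to 88.9, 174, 72.8 and 104 CPM, again highest in replicate 2 and lowest in replicate 3.

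Since same-numbered cultures deviated together, the comparison was also fitted with the replicate number as a block. Some cultures of unequal number also correlated (r of 0.280 and 0.148), so the pairing is uncertain. In the blocked fit 7 of 10 members were called, 4 up (Ehd3, Flt1, Plvap and Emcn) and 3 down (Tek, Sox17 and Kdr), against 44.6% of all genes (23.2% up and 21.3% down). The blocked and unblocked log2 fold changes were close, and their standard errors were not, as the plot of fold changes shows. The median over the members with the block was 0.12.

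Of the junction and surface genes, Pecam1 encodes an adhesion protein of the cell border. Its level in replicates 1 to 4 was 13.5, 39.8, 8.43 and 25.6 CPM in non-senescent and 16.5, 39.8, 8.78 and 21.1 CPM in senescent PTEC. The means were 21.8 ± 14.0 and 21.6 ± 13.2 CPM (SD, n = 4 each), and each culture stayed close to its numbered partner. The log2 fold change was -0.02 ± 0.525 (SE, adjusted p = 0.978 by edgeR) without the block and 0.02 ± 0.133 (adjusted p = 0.927) with it. Cdh5 encodes VE-cadherin, the adhesion protein that defines the endothelial junction. It was at 22.4, 65.7, 9.49 and 38.9 CPM in non-senescent and 22.5, 50.6, 9.56 and 26.2 CPM in senescent PTEC, nearly equal in the pairs numbered 1 and 3 and lower after irradiation in the pairs numbered 2 and 4. Its log2 fold change was -0.24 ± 0.137 with the block (adjusted p = 0.171 by edgeR).

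Emcn encodes endomucin, a surface mucin of capillary and venous endothelium. Its levels were 26.6, 64.4, 19.0 and 26.8 CPM in non-senescent and 41.3, 92.6, 22.2 and 54.6 CPM in senescent PTEC. Every senescent culture stood above its numbered partner, by 0.22 to 1.02 on the log2 scale, although the groups overlapped. The means were 34.2 ± 20.4 and 52.7 ± 29.8 CPM (SD). The log2 fold change of 0.62 did not pass without the block (SE 0.464, adjusted p = 0.305 by edgeR) and passed with it (0.60 ± 0.143, adjusted p = 0.00703). With the pair numbered 4 left out it was 0.47 and fell under the fold threshold.

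The receptors parted. Kdr, which encodes VEGF receptor 2, was at 44.7, 40.0, 25.6 and 34.0 CPM in non-senescent PTEC and at 22.2, 26.3, 10.4 and 12.7 CPM in senescent PTEC. The differences within the 4 pairs ran from -1.42 to -0.60 on the log2 scale, and only the highest senescent culture reached into the range of the non-senescent ones. The log2 fold change was -1.01 ± 0.303 (adjusted p = 0.0221 by edgeR) without the block and -1.08 ± 0.155 (adjusted p = 0.000562) with it. The unblocked call was lost without senescent replicate 4 (adjusted p = 0.0650 by edgeR) or without non-senescent replicate 1 (adjusted p = 0.0614). Flt1 encodes VEGF receptor 1, which binds VEGF-A tightly and signals weakly. It moved the other way, from 13.3, 22.9, 3.45 and 11.7 CPM in non-senescent to 36.0, 49.9, 13 and 17.1 CPM in senescent PTEC. All 4 pairs rose, by 0.54 to 1.91 on the log2 scale, while the groups overlapped, with replicates 3 and 4 low in both. The log2 fold change was 1.17 ± 0.552 (adjusted p = 0.114 by edgeR) without the block and 1.24 ± 0.206 (adjusted p = 0.00133), or 2.36-fold, with it.

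Tek encodes TIE2, the receptor for angiopoietins. Its levels were low, 1.78, 5.32, 1.10 and 3.32 CPM in non-senescent PTEC and 0.483, 2.01, 0.459 and 1.0 CPM in senescent PTEC, from 28 to 162 and 15 to 60 reads. Each senescent culture was below its partner, with differences from -1.89 to -1.26 on the log2 scale. Its log2 fold change was -1.55 ± 0.593 without the block (adjusted p = 0.0576 by edgeR) and -1.56 ± 0.248 with it (adjusted p = 0.000950), a 2.95-fold lower level. Without the block, Tek was called in 2 of 8 fits that left out 1 culture (edgeR adjusted p = 0.0196 without senescent replicate 2 and 0.0280 without non-senescent replicate 3), and without non-senescent replicate 2 it was at -1.07 with an adjusted p of 0.164. DESeq2 called it with an adjusted p of 0.0266.

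Eng encodes endoglin, a co-receptor for BMP and TGF-β ligands that is abundant on endothelium. It was at 26.3, 61.4, 18.6 and 35.9 CPM in non-senescent and 35.9, 73.9, 19.1 and 39.3 CPM in senescent PTEC. All 4 pairs were higher after irradiation, but by as little as 0.04 and at most 0.45 on the log2 scale, and the log2 fold change of 0.22 ± 0.117 with the block did not pass (adjusted p = 0.138 by edgeR).

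Of the capillary bed genes, both rose in the blocked fit. Ehd3 was at 4.0, 6.04, 1.65 and 2.88 CPM in non-senescent PTEC and 15.2, 17.4, 7.94 and 13.8 CPM in senescent PTEC (42 to 184 and 294 to 521 reads). The lowest senescent culture stood above the highest non-senescent one, and Ehd3 had the largest log2 fold change of the 10 genes in both fits. It was 1.89 ± 0.386 (adjusted p = 0.00349 by edgeR) without and 1.98 ± 0.190 (adjusted p = 6.78e-05) with the block. Plvap, which encodes the protein of the diaphragms that close endothelial pores, was at 3.29, 13.7, 3.33 and 10.8 CPM and then 7.46, 22.9, 8.08 and 17.9 CPM. Every pair rose, by 0.73 to 1.28 on the log2 scale, and the groups overlapped. Its log2 fold change was 0.85 ± 0.537 (adjusted p = 0.225 by edgeR) without and 0.97 ± 0.165 (adjusted p = 0.00136) with the block, 1.96-fold.

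Sox17 was at 2.09, 5.05, 1.53 and 2.99 CPM in non-senescent and 0.965, 1.14, 1.0 and 0.622 CPM in senescent PTEC, from 39 to 154 and 18 to 37 reads. The groups did not overlap, and the spread between cultures shrank, with SDs of 1.55 and 0.220 CPM. For Sox17 the log2 fold change was -1.64 ± 0.392 (adjusted p = 0.00786 by edgeR) without and -1.54 ± 0.333 (adjusted p = 0.00451) with the block. Ehd3 and Sox17 were the 2 members whose groups did not overlap, against 42% of all genes tested, and their unblocked calls held with any of the 8 cultures left out.

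**Figure D2:**
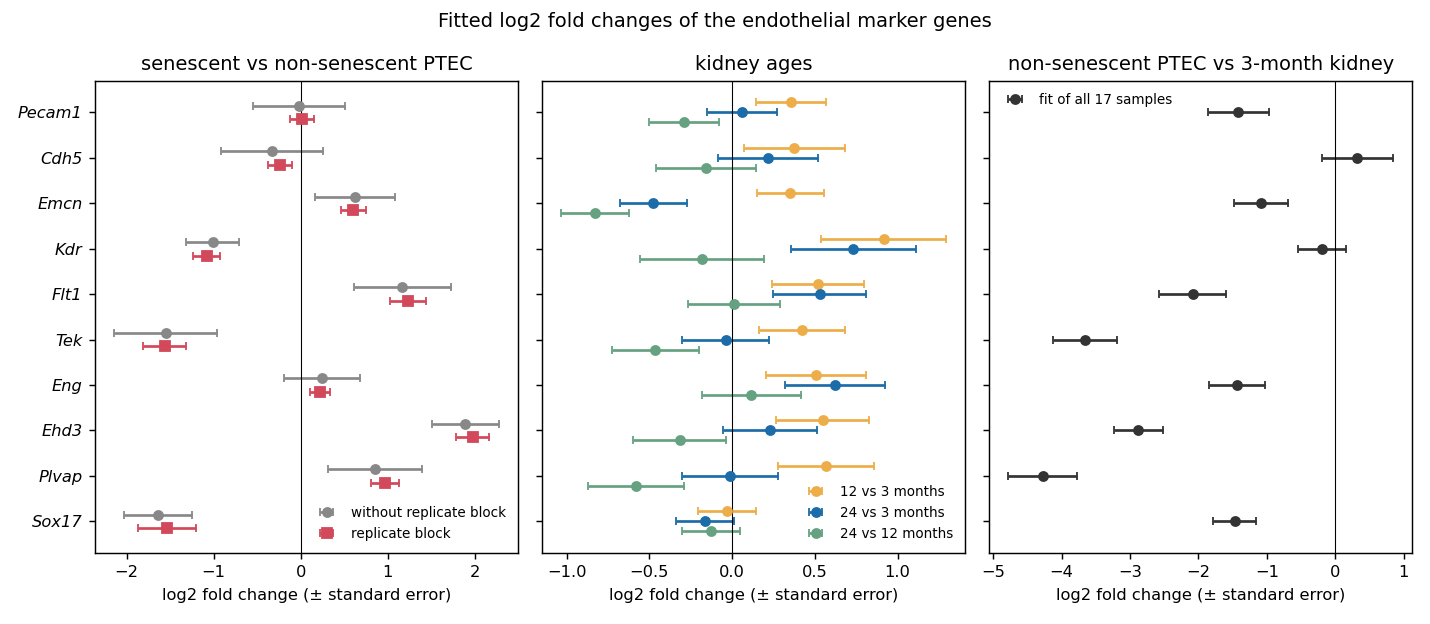
Log2 fold changes of the 10 markers with their standard errors, for senescent against non-senescent PTEC with and without the replicate block (left), for the kidney ages (middle), and for non-senescent PTEC against 3-month-old kidneys (right). Blocking leaves the points nearly in place and shortens the bars, for Ehd3 from 0.386 to 0.190.

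Each member was also set against the junction genes of the same culture. The measure was the log2 ratio of a member's CPM to the geometric mean of Pecam1 and Cdh5, for the 8 remaining members, with a two-sided exact permutation test over the cultures whose smallest possible p is 0.0286 for 4 against 4. For Tek this ratio was nearly the same in the non-senescent cultures, -3.28, -3.27, -3.03 and -3.25, and lower in every senescent culture, at -5.32, -4.48, -4.32 and -4.55. For Ehd3 it went from a range of -3.45 to -2.12 to one of -1.36 to -0.21, and for Plvap from one of -2.40 to -1.42 to one of -1.37 to -0.18. These 3 genes gave the smallest possible exact p (0.0286 each) with groups that did not overlap, against 7.80% of 15432 genes whose ratio did not overlap. The p-values of the 8 ratios are not adjusted for their number. The mean differences were 2.10 for Ehd3, 1.09 for Plvap and -1.46 for Tek. Flt1 (1.36, exact p = 0.0571), Emcn (0.71, exact p = 0.0571), Sox17 (-1.43, exact p = 0.0857), Kdr (-0.98, exact p = 0.171) and Eng (0.33, exact p = 0.2) overlapped between the groups. This test does not use the replicate numbers. The spread between cultures did not narrow for every gene, with non-senescent Kdr ratios from -0.36 to 1.52 and senescent Sox17 ratios from -5.30 to -3.20. Within same-numbered cultures, each of the 8 ratios differed in one direction in all 4 pairs, as did 53.2% of 15432 genes. All 8 share the denominator, so they are not independent. Among them were Kdr (-1.34 to -0.41), Flt1 (0.97 to 1.88) and Eng (0.0054 to 0.56), and an exact paired test of 4 pairs cannot go below 0.125.

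Markers of other cell types also differed, and their counts stand beside the 20.1% of all genes called up and 19.7% called down (23.2% and 21.3% with the block). A list of mural and fibroblast genes summed to 290 to 406 CPM in non-senescent and 1017 to 2244 CPM in senescent PTEC, with 6 of 11 tested genes up and 1 down (10 and 1 with the block). Its contractile gene Acta2 averaged 60.5 and 695 CPM. The leukocyte list summed to 54.0 to 82.1 and 30.7 to 82.7 CPM, overlapping, with 0 of 9 up and 3 down. Podocyte genes summed to 106 to 230 CPM and then 243 to 491 CPM (means 171 and 380 CPM), without overlap, with 3 of 6 up and 0 down. These were the cytoskeletal gene Synpo (means 59.3 and 257 CPM), Nphs1 (0.0984 and 1.03 CPM) and Cdkn1c. Red cell and platelet genes summed to 47.4 to 139 and 14.6 to 36.6 CPM, with 0 of 3 up and 2 down. The part of these shifts in the endothelial values was not tested. Of 22 further endothelial genes tested, 4 fell and 0 rose without the block, 4 of 22 being near the background of 19.7%. They were led by Ramp2 (-1.64, adjusted p = 0.00282 by edgeR), the partner of the adrenomedullin receptor. With the block 6 fell and Mmrn2 rose (1.22, adjusted p = 0.00695), where 21.3% of all genes fell and 23.2% rose. The median log2 fold change of the 22 was -0.15 in that fit.

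Genes of the pathways that the members serve were taken from lists, and their counts stand against 20.1% of all genes called up and 19.7% called down. Of 13 VEGF and angiopoietin genes 4 rose and 3 fell without the block. Angpt4, an angiopoietin, rose from a mean of 3.22 to one of 17.9 CPM (log2 fold change 2.47, adjusted p = 0.00017 by edgeR), and Vegfd, a ligand of the VEGF family, had the lowest value (-1.33, adjusted p = 0.0104). Of 10 endoglin and BMP pathway genes 4 rose and 0 fell, with a median log2 fold change of 0.91. Smad6, an inhibitor of BMP signalling that BMP induces, had the highest value (1.3, adjusted p = 0.00107 by edgeR), and Id3 rose least (0.95, adjusted p = 0.00500). With the block 5 rose, led by Smad7 (1.33) before Smad6 (1.26). Of 11 Notch and arterial genes 2 rose and 3 fell, from Gja5 (-2.47), a connexin of arterial endothelium, to Hey2 (1.78), a Notch target. Of 5 endothelial activation genes 3 rose and 0 fell, among them Thbs1 (1.75, adjusted p = 0.00393 by edgeR). Of 3 tested genes of the glomerular capillary list, Plat, the tissue plasminogen activator, rose (0.68) and Lpl fell (-2.90, adjusted p = 1.53e-05 by edgeR), and Tbx3 also fell with the block (-0.87). The summed level of the 7 listed genes was 344 to 426 CPM in non-senescent and 508 to 660 CPM in senescent PTEC, most of it Plat (means 359 and 575 CPM). With the block 4 of the VEGF and angiopoietin genes rose and 5 fell, and 3 of the Notch and arterial genes rose and 3 fell, against 23.2% of all genes up and 21.3% down.

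Between kidneys of different ages, the markers' differences were mostly of the size of the spread within an age. With edgeR 0 of 10 members passed for 24 against 3 months, 0 for 12 against 3 months and 0 for 24 against 12 months, where 2.34%, 2.58% and 1.33% of all genes were called (0.896% up and 0.434% down in the last), so that a count of 0 among 10 genes is close to the background. In each comparison 1 member had an unadjusted p under 0.05 (Emcn, Kdr and Emcn), as did 18.2%, 16.5% and 15.2% of all genes. DESeq2 called 0, 0 and 1 (Emcn). The median log2 fold change of the members was 0.14 for 24 against 3 months, 0.46 for 12 against 3 months (9 of 10 higher, all but Sox17) and -0.24 for 24 against 12 months (8 of 10 lower, all but Eng and Flt1). These comparisons share the groups between them. Depth also rose with age, without overlap between ages. The gene set on which reads were counted may also differ between 3-month-old and older kidneys. Neither can be told apart from age here.

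**Figure D3:**
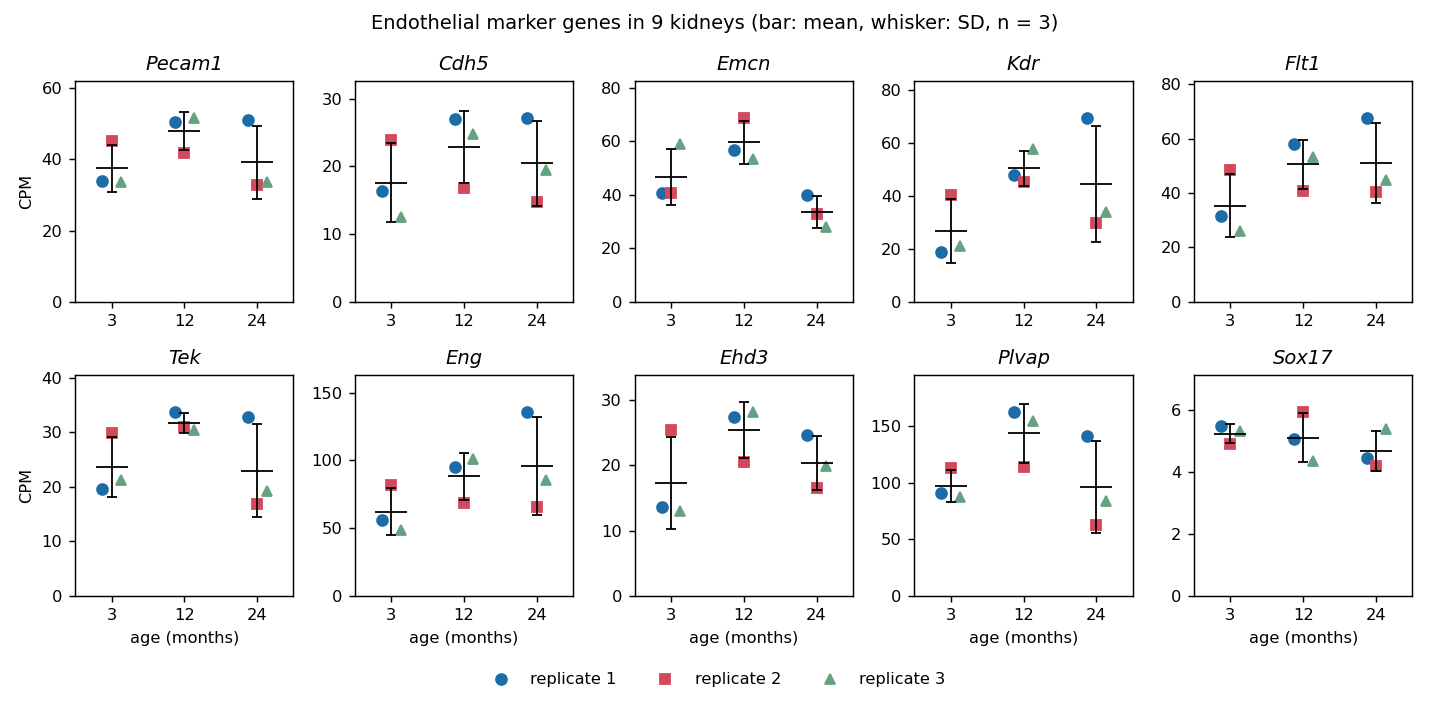
Levels of the 10 endothelial markers in each kidney, as CPM, at 3, 12 and 24 months of age (n = 3 mice each), with symbols for the replicate number, bars for group means and whiskers for the SD. The 3 kidneys of 24 months lie below the 3 kidneys of 12 months for Emcn, and the ages overlap in most other panels.

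Emcn was at 40.7, 40.5 and 58.9 CPM in the kidneys of 3 months, at 56.7, 68.8 and 53.3 CPM at 12 months and at 40.0, 32.7 and 28.1 CPM at 24 months. The 24-month-old kidneys lay below those of both other ages. Its log2 fold change for 24 against 12 months was -0.83 ± 0.205 (adjusted p = 0.0973 by edgeR), a 1.77-fold lower level, and -0.48 ± 0.204 for 24 against 3 months (adjusted p = 0.264). The adjusted p for 24 against 12 months lay between 0.0865 and 0.269 under the other edgeR settings planned and between 0.166 and 0.274 with 1 kidney left out, and was 0.00966 with DESeq2. Emcn was the 1 member without overlap in the comparison of 24 with 3 months (background 22%) and in that of 24 with 12 months (25.6%).

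Kdr was at 18.8, 40.4 and 20.9 CPM at 3 months, 47.8, 45.3 and 57.8 CPM at 12 months, and 69.4, 29.6 and 33.9 CPM at 24 months. The 12-month-old kidneys all exceeded the youngest ones, and the oldest spread across both ranges. Its log2 fold change was 0.91 ± 0.378 for 12 against 3 months (adjusted p = 0.263 by edgeR) and 0.73 ± 0.377 for 24 against 3 months (adjusted p = 0.327), the latter 0.25 to 1.17 with 1 kidney left out. Flt1 followed with 31.6, 48.3 and 26.0 CPM, 58.1, 40.6 and 53.1 CPM, and 67.7, 40.4 and 44.7 CPM, overlapping between all ages (log2 fold change 0.53 for 24 against 3 months, adjusted p = 0.336). Tek was at 19.6, 29.9 and 21.3 CPM, then at 33.7, 30.9 and 30.4 CPM, and then at 32.8, 16.8 and 19.3 CPM. Its 12-month values were the tightest of the 3 ages (SD 1.81 CPM) and lay above all 3-month values. Kdr, Tek and Plvap were the 3 members without overlap between 12 and 3 months, where 20.3% of genes did not overlap.

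Per length of exon, Plvap had the highest mean level of the members at every age. It was at 90.6, 113 and 87.1 CPM, at 163, 114 and 155 CPM, and at 142, 62.3 and 84.2 CPM at 3, 12 and 24 months. The oldest kidneys held both the lowest value and one of the highest (log2 fold change -0.01 for 24 against 3 months and 0.57 for 12 against 3 months, adjusted p = 0.391 by edgeR). Eng was at 55.7, 82.0 and 48.8 CPM, 95.3, 68.7 and 101 CPM, and 136, 65.6 and 85.4 CPM, with its highest mean at 24 months (log2 fold change 0.62 ± 0.302 against 3 months, adjusted p = 0.307). Ehd3 was between 13 and 28.2 CPM over the 9 kidneys, with means of 17.4 ± 7.05, 25.4 ± 4.27 and 20.4 ± 4.16 CPM (SD, n = 3 each).

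Pecam1 averaged 37.6 ± 6.59, 48.0 ± 5.44 and 39.2 ± 10.3 CPM (SD, n = 3) at 3, 12 and 24 months, and Cdh5 averaged 17.6 ± 5.83, 22.8 ± 5.34 and 20.4 ± 6.29 CPM. The differences between ages were of the size of the spread within an age. Sox17 was the steadiest member, at 5.23 ± 0.303, 5.11 ± 0.800 and 4.67 ± 0.637 CPM, with log2 fold changes of -0.16, -0.03 and -0.13 in the 3 comparisons.

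As in the cultures, kidneys of 1 age differed from each other across the whole set. At 24 months replicate 1 was highest and replicate 2 lowest for 9 members each. At 3 months replicate 2 was highest for 8 members, while replicate 3 was lowest for 6 and yet the highest for Emcn. At 12 months replicate 2 was lowest for 7 members and highest for Emcn and Sox17. The summed level of the 10 genes in replicates 1, 2 and 3 was 326, 454 and 327 CPM at 3 months, 565, 453 and 559 CPM at 12 months, and 595, 316 and 374 CPM at 24 months. The proximal tubule list summed to 8318, 12077 and 5454 CPM, to 13198, 6719 and 13827 CPM, and to 14273, 9861 and 14243 CPM, and the podocyte list, of the filter cells of the glomerulus, to 228, 436 and 197 CPM, to 302, 139 and 347 CPM, and to 355, 257 and 311 CPM. The kidneys with the highest member sum at 3 and 24 months thus also had the highest podocyte sum, and the kidney with the lowest member sum at 12 and 24 months the lowest podocyte and proximal tubule sums. The part of tissue composition in the endothelial values was not tested.

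Immediate early and heat shock genes, which respond to handling of tissue within minutes, also differed by kidney. They summed to 225, 105 and 204 CPM at 3 months, 81.0, 68.1 and 84.5 CPM at 12 months, and 1103, 340 and 153 CPM at 24 months, highest in the oldest kidney that was also highest for 9 members. Leukocyte genes summed to 88.6 to 126 CPM at 3 months, 131 to 162 CPM at 12 months and 145 to 201 CPM at 24 months. Between 24 and 3 months 11 of 11 were higher and 2 were called, where 1.89% of all genes were called up. Their part in the endothelial values was not tested either.

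The kidney replicate numbers did not pair the kidneys of different ages, except that same-numbered kidneys of 12 and 24 months deviated together (r of 0.442, 0.641 and 0.263 over 3 pairs). Kidneys of unequal number correlated as well, with r of 0.392 for number 3 at 12 months with number 1 at 24 months and of 0.313 for number 1 at 12 months with number 3 at 24 months. For number 3 at 3 months with number 2 at 12 months r was 0.823, above every r of same-numbered kidneys. Kidneys of different ages also came from different mice, so the pairing is uncertain. In a fit of these 2 ages alone with the number as a block, chosen after seeing the data, Emcn (log2 fold change -0.84, adjusted p = 0.00407 by edgeR), Plvap (-0.65, adjusted p = 0.0170) and Tek (-0.52, adjusted p = 0.0470) were lower at 24 months, 3 of 10 members where 13.2% of 16686 genes were called (5.41% down). The planned block over all 9 kidneys called 0 members and 0 genes in this comparison with edgeR, with 1930 genes at an unadjusted p under 0.05.

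**Figure D4:**
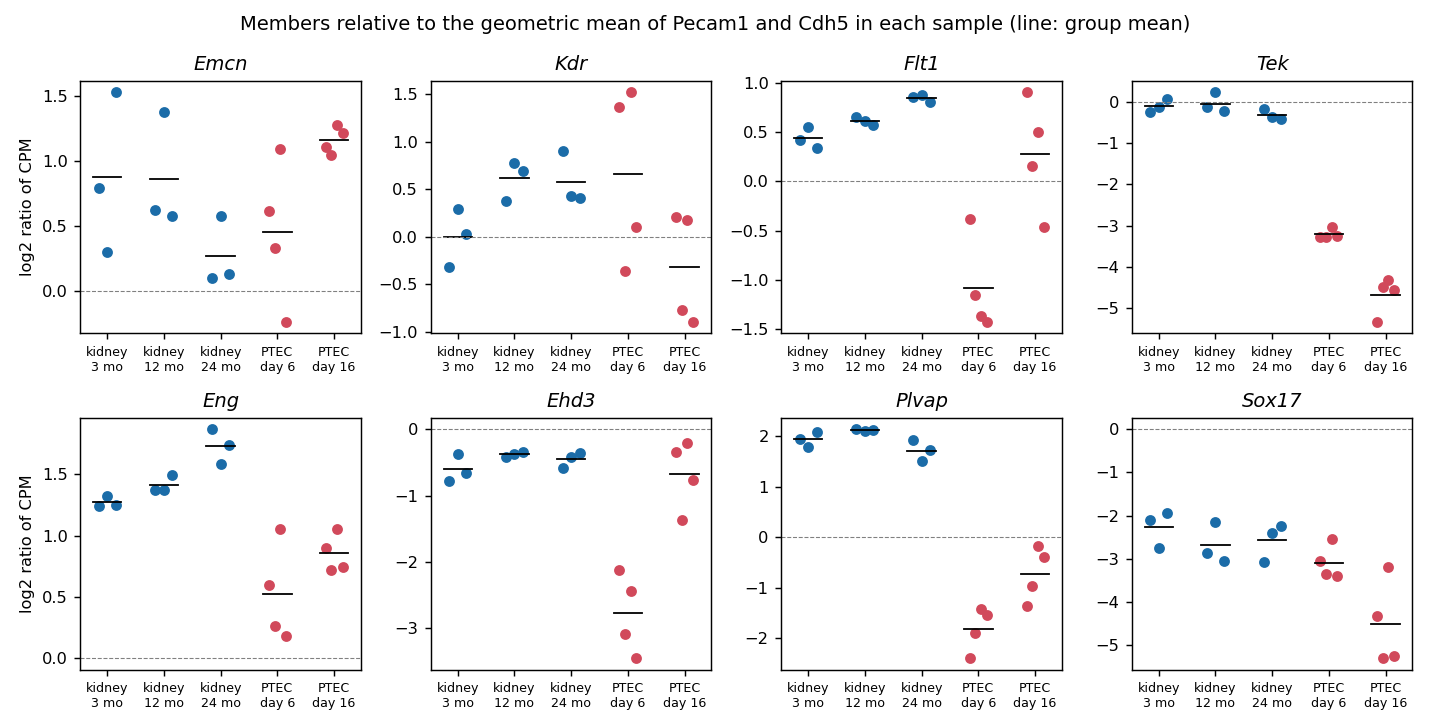
Log2 ratio of 8 markers to the geometric mean of Pecam1 and Cdh5 in the same library, for both PTEC groups and the 3 kidney ages, with 1 point per sample and a line for the group mean. The Flt1 and Eng points of the 3 kidney ages do not overlap, and Ehd3, Plvap and Tek separate the PTEC groups.

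The levels were also set relative to Pecam1 and Cdh5 of the same kidney. The ratio of Flt1 was 0.43, 0.55 and 0.34 on the log2 scale at 3 months, 0.65, 0.62 and 0.57 at 12 months and 0.86, 0.88 and 0.80 at 24 months, with no overlap between any of the ages. Eng was ordered the same way, with 1.24, 1.32 and 1.25, then 1.37, 1.37 and 1.5, and then 1.87, 1.58 and 1.74. Between 24 and 3 months the mean ratio differed by 0.41 for Flt1, 0.46 for Eng and 0.58 for Kdr, each with an exact permutation p of 0.1, the smallest that 3 against 3 kidneys allow. These 3 of 8 ratios did not overlap, against 12.1% of 17065 genes. Between 12 and 3 months Kdr (0.61), Flt1 (0.17), Eng (0.14) and Plvap (0.18) did not overlap, against 25.1% of genes. Between 24 and 12 months Emcn (-0.59), Plvap (-0.40), Flt1 (0.23) and Eng (0.32) did not overlap, against 23.7% of genes. The p-values of the 8 ratios in each comparison are not adjusted, and no such exact test could pass the threshold of 0.05.

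Of the 23 further endothelial genes, 0 were called between any ages with edgeR, and 6, 10 and 5 had an unadjusted p under 0.05 for 24 against 3, 12 against 3 and 24 against 12 months, beside 18.2%, 16.5% and 15.2% of all genes. Angpt2, the antagonistic angiopoietin, was lower at 24 (log2 fold change -0.88, adjusted p = 0.0288 by edgeR) and at 12 months (-1.12, adjusted p = 0.0154) than at 3 months. It was the 1 gene called of 13 VEGF and angiopoietin genes in each of these comparisons, where 0.451% and 1.36% of all genes fell. Of 7 tested activation genes 2 rose and 0 fell from 3 to 24 months, where 1.89% of all genes rose: the adhesion receptors Vcam1 (1.58, adjusted p = 0.0113 by edgeR) and Icam1 (0.82, adjusted p = 0.0291). The summed level of the activation list overlapped between these ages, at 75.9 to 107 and 80.2 to 110 CPM. Lpl, 1 of 7 glomerular capillary genes, fell by 0.89 (adjusted p = 0.0269 by edgeR) over the same span, where 0.451% of all genes fell. The summed level of this glomerular list was 1561 to 2047 CPM at 3 months, 872 to 1178 CPM at 12 months and 972 to 1055 CPM at 24 months. Its 3-month values lay above those of both older ages, without overlap, and the cause was not tested. A sum follows the most abundant genes, and the genes of this list did not move together. From 3 to 24 months 3 were higher and 4 lower (median log2 fold change -0.05). From 3 to 12 months 2 were higher and 5 lower (median -0.16). Id1 (-1.13, adjusted p = 0.0386 by edgeR) and Id3 (-1.39, adjusted p = 0.0456), targets of BMP signalling, were lower at 24 than at 12 months. They were 2 of 10 tested endoglin and BMP pathway genes, where 0.434% of all genes fell. In that comparison 1 to 63 genes in all were called by edgeR with 1 kidney left out, and 0 with the replicate block.

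Cultured PTEC were also set against the 3-month-old kidneys, with all 17 libraries scaled together. Culture, tissue preparation and sequencing run cannot be told apart in this comparison, and the gene sets on which reads were counted also differed. In non-senescent PTEC 8 of 10 members were lower and 0 higher, where 67.5% of all genes were called (35.5% down and 32% up). The median log2 fold change of the members was -1.46. Plvap had the lowest log2 fold change, at a mean of 6.16 CPM in PTEC and 119 CPM in kidney (log2 fold change -4.27 ± 0.504, adjusted p = 1.01e-06 by edgeR, 19.3-fold lower). Tek averaged 2.29 and 29.1 CPM (-3.66 ± 0.468, adjusted p = 2.61e-06, 12.7-fold lower), and Ehd3 2.89 and 21.4 CPM (-2.88 ± 0.362, adjusted p = 2.15e-06, 7.35-fold lower).

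Flt1 (10.2 against 43.5 CPM), Sox17 (2.32 against 6.45 CPM), Eng (28.2 against 76.5 CPM) and Pecam1 (17.3 against 46.3 CPM) were 4.24-fold, 2.78-fold, 2.71-fold and 2.67-fold lower. Emcn was 2.12-fold lower (27.2 against 57.6 CPM, adjusted p = 0.0227 by edgeR), with overlapping groups, and its call was lost without non-senescent replicates 1, 3 or 4 or the 3-month-old kidney 3 (adjusted p up to 0.122). Kdr (28.7 against 32.8 CPM, log2 fold change -0.19 ± 0.351, adjusted p = 0.633) and Cdh5 (27.1 against 21.6 CPM, 0.32 ± 0.524, adjusted p = 0.594) did not differ beyond their spread. Groups did not overlap for 7 members, against 62.5% of all genes. When library sizes were taken from total counts alone, the median of all genes moved by 0.60, 5 members were called, and Pecam1 (-0.80), Emcn (-0.47) and Eng (-0.82) lost their calls.

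Relative to Pecam1 and Cdh5, Plvap (-3.76), Tek (-3.09) and Ehd3 (-2.17) were lower in non-senescent PTEC than in 3-month-old kidneys, each with an exact permutation p of 0.0286, the smallest for 4 against 3. Flt1 (-1.53, exact p = 0.0571) and Eng (-0.75, exact p = 0.0571) did not overlap either, against 44.2% of 17997 genes without overlap. These p-values are not adjusted. Pecam1 and Cdh5 themselves parted in this comparison (log2 fold changes of -1.42 and 0.32), so the size of each ratio depends on which of them is used.

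**Figure D5:**
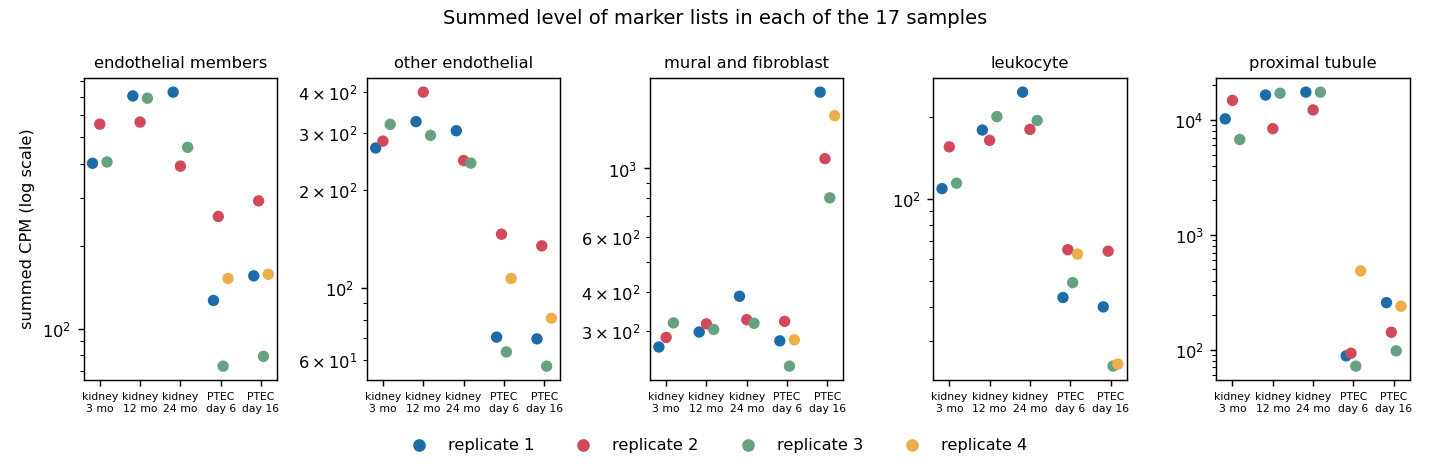
Summed CPM, on a log axis, of the 10 endothelial markers, other endothelial genes, mural and fibroblast genes, leukocyte genes and proximal tubule genes in each of the 17 libraries, scaled together. The markers sum to 73.2 to 257 CPM in non-senescent PTEC and 401 to 557 CPM in 3-month-old kidneys, a far smaller gap than that of the proximal tubule genes.

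The summed level of the 10 members was 73.2 to 257 CPM in non-senescent PTEC, 79.4 to 293 CPM in senescent PTEC, 401 to 557 CPM in kidneys of 3 months, 567 to 706 CPM at 12 months and 392 to 729 CPM at 24 months. The other endothelial list gave 18 of 23 genes lower in non-senescent PTEC than in 3-month-old kidneys and a median of -1.63, from Aplnr (-5.80), the apelin receptor, to Tal1 (-0.91). Proximal tubule genes were lower for 8 of 8 with a median of -8.57, leukocyte genes for 8 of 11 with a median of -1.37, and mural and fibroblast genes for 8 of 12 with a median of -2.58.

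Across all 5 groups, the 12-month-old kidney had the highest mean for 8 of the 10 genes, with Eng highest at 24 months and Sox17 at 3 months. For Flt1 the 12- and 24-month means were nearly equal, and they changed places when the kidneys were scaled alone. PTEC ranked below all kidney groups for 9 genes, the exception being Cdh5, for which non-senescent PTEC (27.1 ± 19.2 CPM, SD, n = 4) stood second and all neighbouring groups overlapped. The lowest kidney group and the higher PTEC group did not overlap for Pecam1, Tek, Eng, Ehd3, Plvap and Sox17, and overlapped for Emcn, Kdr and Flt1.

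Between genes, levels were compared per length of exon. In 3-month-old kidneys Plvap had the highest level at 48.8 CPM per kb, followed by Eng at 15.4, Emcn at 8.64, Pecam1 at 6.03, Tek at 5.01, Cdh5 at 4.18, Kdr at 2.95, Ehd3 at 2.65, Flt1 at 2.61 and Sox17 at 1.10 CPM per kb. The values of neighbouring genes overlapped from Pecam1 to Flt1, and did not overlap at the top of the order or before Sox17. In non-senescent PTEC the order was Eng (8.78), Cdh5 (8.12), Emcn (6.32), Kdr (3.99), Plvap (3.91), Pecam1 (3.51), Flt1 (0.952), Tek (0.611), Sox17 (0.611) and Ehd3 (0.555 CPM per kb), with all neighbours overlapping. In senescent PTEC Eng (10.4), Emcn (9.74) and Plvap (7.08) led, and Tek (0.210) and Sox17 (0.195 CPM per kb) stood apart below the rest.

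The genes most like each member over the 9 kidneys were found by the SD of the log2 ratio of their CPM, a description without a test, among 13318 genes. The points share libraries and their depth. Plvap was nearest to Tek (SD 0.171), another member, and Eng was nearest to Tie1 (0.103), the partner receptor of TIE2, and then to Flt1 (0.110). Flt1 was nearest to Sertad2 (0.0912) with Tie1 close behind (0.104). Cdh5 was nearest to Notch4 (0.102), an endothelial Notch receptor, and Tek to Robo4 (0.113), an endothelial guidance receptor. Pecam1 was nearest to Plpp3 (0.0924), Ehd3 to Unc45b (0.107), Kdr to Kcnd3 (0.146), Emcn to Rem1 (0.156) and Sox17 to Hmgxb4 (0.0822).

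The nearest other member was the 1st gene of all for Plvap, the 2nd for Eng, the 4th for Tek and the 5th for Flt1, and ranked 22 to 37 for Ehd3, Pecam1, Cdh5 and Kdr. For Emcn it ranked 2067 (Tek, SD 0.373) and for Sox17 6908 (Pecam1, SD 0.379). The SD of Emcn itself over the 9 kidneys was 0.425 and that of Sox17 0.171 on the log2 scale.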

How the data were processed

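RNA from 8 PTEC cultures and 9 kidneys was sequenced. Per the labels and the study's methods, libraries came from a stranded kit after mRNA enrichment, and the authors deposited raw counts per gene for GRCm38 without normalization. The study's methods name the nf-core/rnaseq pipeline. The aligner, counter and strand setting within it are not given in the sources used here. The libraries were counted on 3 different gene sets. Joining the kidneys on shared identifiers removed more counts from each 3-month-old kidney than from any older one. In replicate 1 the totals went from 37311247 to 37276767 at 3 months and from 59718029 to 59702719 at 12 months. The gene set may thus differ between these ages. Symbols, positions and exon lengths were taken from GENCODE release M21, later than the study's.

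Counts were used as deposited in R 4.3.3 with edgeR 4.0.16 (TMM, filterByExpr, robust quasi-likelihood test, Benjamini-Hochberg adjustment), separately for PTEC and for kidneys, with one spread estimated over all ages, and over all 17 libraries for the comparison between them. DESeq2 1.42.0, other scalings, filters and thresholds, a replicate block and each library left out in turn were alternatives. Python 3.11.15 drew the plots. The edgeR test without the block was also run on simulated counts. In these, genes varied independently and without a replicate effect, unlike the members in PTEC. The blocked fit was not simulated.

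Same-numbered PTEC deviated together from their group means (r of 0.287, 0.394, 0.654 and 0.195 over 15434 genes), and the numbers were therefore treated as pairs of cultures. Non-senescent number 2 also correlated with senescent number 1 (r of 0.280), and non-senescent number 1 with senescent number 2 (r of 0.148). Same-numbered kidneys of 3 and 12 months (r from -0.766 to -0.0557) and of 3 and 24 months (r from -0.528 to -0.0269) did not deviate together.

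The members, the 13 other lists (139 genes) and the tests were chosen with earlier results of these data known. Of the other lists, the text names called genes with the largest and smallest log2 fold changes, defining genes of a cell type, and a few that were chosen after their values were seen. Genes like a member needed a mean of at least 1 CPM, with a prior count of 2. Depth is the total count per library.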

Additional observations from a re-analysis of the deposited data

How the results depend on the processing

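The exceptions among the members and the total counts of called genes follow. In senescent against non-senescent PTEC, 3753 genes were called at an absolute log2 fold change above 1 instead of 6144, of which 1686 instead of 3044 were called down. The replicate block raised the called members from 3 to 7, also with RLE size factors and in DESeq2, and Pecam1, near 0 throughout, turned from -0.02 to 0.016 (0.0052 with RLE, 0.0024 in DESeq2, and 0.021 with total counts alone). The block with RLE or in DESeq2 was chosen after seeing the data, as was leaving out each pair from the blocked fit, which gave 6 to 7 members and -0.076 to 0.12 for Pecam1 (0.024 and 0.012 without the pairs numbered 2 and 3). For kidneys, genes called changed from 399 (24 against 3 months) to 1035 with DESeq2, 126 with the replicate block and 265 with the compared ages alone, and from 441 (12 against 3 months) to 1107, 118 and 64. For 24 against 12 months they changed from 227 to 779 with DESeq2 (1 member) and to 0 with the block in edgeR (1930 at an unadjusted p under 0.05), and those called down alone from 74 to 44 with total counts alone, 46 with the 2 ages alone and 49 at an absolute log2 fold change above 1, while the 2 ages alone with the block, also chosen after seeing the data, gave 2200 genes and 3 members. Flt1 in that comparison turned from 0.01 to -0.01 without the filter and in both blocked fits (-0.0076, -0.0119 and -0.0140). With total counts alone, PTEC against 3-month-old kidneys had 5 members called, and Kdr turned to 0.42. No other member's direction was changed by the block. Except where the settings differ by design, the cause was not tested.

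With 1 library left out, the unblocked ranges in senescent against non-senescent PTEC were -0.34 to 0.54 for the median of the members, -0.50 to 0.44 for Pecam1, -0.81 to 0.20 for Cdh5 and -0.18 to 0.64 for Eng. They were 0.20 to 1.12 for Emcn, 0.52 to 1.28 for Plvap, 0.78 to 1.60 for Flt1 and -2.16 to -1.07 for Tek. The ends of all these ranges lay at senescent and non-senescent replicate 2. For 24 against 3 months 74 to 794 genes were called, and the median of the members was -0.081 to 0.37, Pecam1 -0.17 to 0.22, Cdh5 -0.040 to 0.51, Tek -0.38 to 0.17, Plvap -0.40 to 0.22, Kdr 0.25 to 1.17, Eng 0.28 to 0.88, Flt1 0.27 to 0.83 and Ehd3 0.055 to 0.62. For 12 against 3 months 52 to 716 genes were called, with Sox17 at -0.15 to 0.070. For 24 against 12 months 1 to 63 genes were called, with the median at -0.51 to -0.11, Flt1 at -0.25 to 0.15, Eng at -0.22 to 0.33, Cdh5 at -0.42 to 0.032 and Kdr at -0.66 to 0.041. For PTEC against kidneys Cdh5 ranged from -0.21 to 0.70 and Kdr from -0.34 to 0.32. Genes with few reads, Tek and Sox17 in PTEC, are limited by depth as well as by the spread between cultures.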
